A study of Mus musculus with 12 samples.

Results

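The response described here is the difference between bone marrow-derived macrophages (BMDMs) that were floxed at tlr4 and left without LPS and BMDMs that carried lysM-cre on the same floxed background and received LPS. It sets the 3 columns headed LPS- tlr4f/f against the 3 columns headed LPS+ tlr4f/f-lysM-cre, 6 of the 12 libraries of the series. Every mouse carried floxed tlr4 alleles on the C57BL/6 strain, and in one genotype Cre driven by the lysM (Lyz2) locus, which is active in macrophages and neutrophils, removes the floxed gene from myeloid cells. Marrow cells were grown with 50 ng/mL of M-CSF over 7 days, and the treated group then had LPS at 1 µg/mL, over 6 h. The groups are called resting and LPS+ cre below. They differ in the Cre genotype and in LPS at once, so the part of each in a difference cannot be told apart from these 6 libraries. The age and sex of the mice that gave the marrow and whether each library came from a mouse of its own are not given in the sources used here. The p-values therefore measure the spread between libraries, pooled over both groups.

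LPS, a lipid of the outer membrane of Gram-negative bacteria, is carried by CD14 to a receptor made of TLR4 and MD-2 (encoded by Ly96). The receptor signals at the cell surface through TIRAP and MyD88, which leads to NF-kB and to cytokine genes. From endosomes it signals through TRAM (Ticam2) and TRIF (Ticam1), which leads to interferon-beta and, through its receptor, to a second group of interferon-stimulated genes. In macrophages grown with M-CSF, LPS is also known to halt cell division. A macrophage without TLR4 would lack the first step of each of these routes.

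The targeted gene was examined first. Tlr4 (chromosome 4, 66827584 to 66930284) was at 81.8, 155 and 128 CPM (a gene's count relative to the library total, which edgeR scales by TMM) in resting replicates 1, 2 and 3, and at 29.1, 26.1 and 26.3 CPM in the LPS+ cre libraries. The groups did not overlap, and the difference (with its standard error, SE) was log2 fold change -2.16, SE 0.237, adjusted p = 0.00138 by the quasi-likelihood test of edgeR, adjusted by Benjamini-Hochberg, as are all adjusted p below. The adjusted p of Tlr4 rose above the threshold used below, to 0.0114 to 0.0127, when 1 LPS+ cre library was left out. As raw counts, Tlr4 had 3041 to 4367 in the columns headed LPS- tlr4f/f-lysM-cre, 3 libraries, and 1086 to 1484 in the 3 headed LPS+ tlr4f/f. The columns headed with Cre thus held more Tlr4 than those headed without it, which goes against those 6 headings. None of those libraries enters the test, but their counts had a part in choosing the transcript kept for each gene. The counts do not show which exons were read. Lyz2, the locus that holds Cre, went from 6999.7, 10034 and 24713 CPM to 80.02, 62.4 and 55.8 CPM (log2 fold change -7.72, SE 0.640, adjusted p = 0.000570). Its raw counts were 494 to 623 in the columns headed LPS+ tlr4f/f, whose heading names no Cre, and 221787 to 303431 in the 3 with the heading LPS- tlr4f/f-lysM-cre. Raw counts of Il6, an LPS response gene, were 6 to 13 in the former and 14205 to 48565 in the latter, which goes against the LPS in those headings too. Lyz1 is a close copy of Lyz2, and reads that match both can be split between them.

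The 6 libraries held between 38274326 and 56445268 counts over genes. The LPS+ cre libraries were close to each other, with Pearson's r of log2 CPM across genes between 0.989 and 0.991 and a coefficient of variation between replicates of 8.97%. The resting libraries were not: the coefficient was 44.0%, and resting replicate 3 had r of 0.926 and 0.946 with the others, which had 0.967 with each other. The edgeR test estimates 1 spread per gene over both groups, so it does not model this difference in spread. The 6 macrophage markers, including Adgre1, Csf1r and Cd68, summed to 5295 to 6500 CPM in the resting group and 6062 to 6199 CPM in the LPS+ cre group. By the rule given below 0 of 6 were called, against 13.4% of all genes tested. Single markers varied more than their sum at rest, such as Adgre1 (715 to 2481 CPM) and Itgam (431 to 1691 CPM). Cd68 was at 758 to 1078 CPM at rest and 615 to 687 CPM in the LPS+ cre group. Fibroblast and stroma markers stood out in resting replicate 1, where Col1a1 had 20118 counts, against 1829 and 123 in the other resting libraries and 383 to 598 in the LPS+ cre libraries. Their summed level ran from 12.4 to 803.5 CPM in the resting group and from 53.2 to 69.0 CPM in the LPS+ cre group. Neutrophil markers summed to 0.675 to 14.6 CPM and 5.92 to 8.15 CPM, with Ly6g at 0 counts in all 6 libraries. Erythroid markers summed to 0.187 to 1.13 CPM and 2.40 to 3.46 CPM, B lymphocyte markers to 0.397 to 1.60 CPM and 0.636 to 0.825 CPM, T lymphocyte markers to 1.27 to 2.78 CPM and 1.41 to 2.05 CPM, and mast cell and basophil markers to 0.274 to 3.91 CPM and 0.367 to 0.850 CPM. Dendritic cell markers summed to 0.289 to 0.602 CPM and 3.08 to 3.42 CPM, and 1 of the 6, Xcr1, was higher in the LPS+ cre group. Flt3, Siglech and Cd209a of that list had at most 2 counts in any library. Both groups thus carried macrophage markers at similar summed levels, though single markers varied among the resting libraries. The markers of other cells were low apart from stroma in resting replicate 1. The part of these other cells in the results was not tested. In bulk RNA, fewer cells of a type and less RNA per cell cannot be told apart. Ddx3y, on the Y chromosome, was at 45.7 to 69.1 CPM in the resting group and 84.2 to 93.6 CPM in the LPS+ cre group. Xist, on the X chromosome, had at most 29 counts and 1 count, so all 6 libraries showed a male pattern.

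Of 14584 genes tested, 1950 (13.4%) were differentially expressed genes (DEGs), which had to differ by more than 2-fold with an adjusted p under 0.01. They were 1009 higher (6.92%) and 941 lower (6.45%) in the LPS+ cre group. More than 8-fold changes were more often rises, with 296 DEGs higher and 177 lower. The median size of the log2 fold change was 2.00 among the DEGs that rose and 1.80 among those that fell, and the median over all genes tested was -0.05. The groups did not overlap for 57.9% of the genes tested. The count of DEGs was lowest when a library of the LPS+ cre group, which had the smaller spread, was left out. It was 657, 592 and 753 without replicate 1, 2 or 3 of that group, and 1916, 1737 and 2291 without replicate 1, 2 or 3 of the resting group. No gene that was a DEG both with all libraries and with 1 left out changed its direction (0 genes). Such fits share most libraries and the genes had to pass the threshold in each, so this count was close to fixed in advance.

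**Figure D1:**
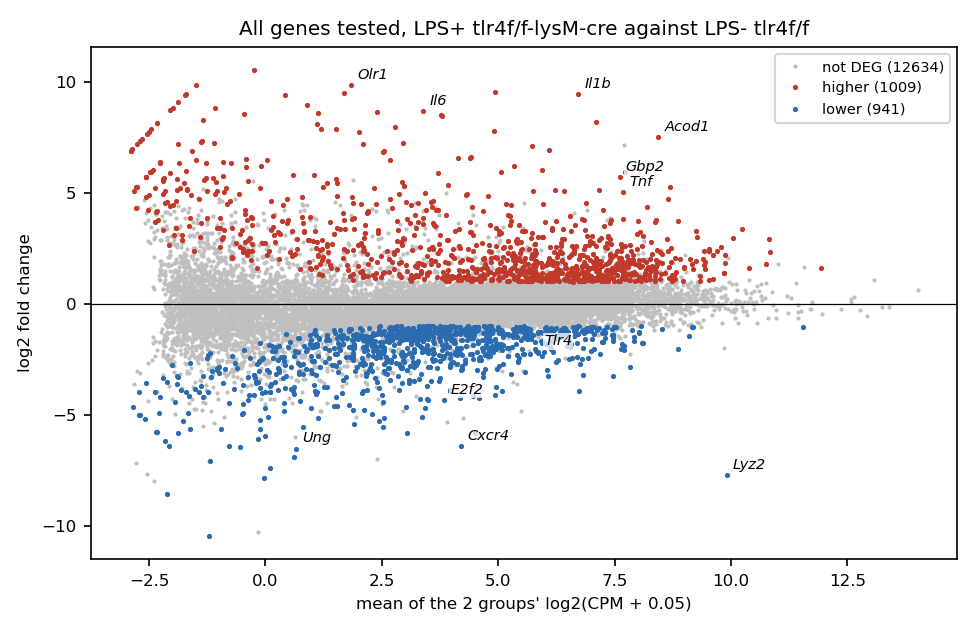
Each point is 1 of the 14584 genes tested, with its log2 fold change (LPS+ cre over resting) against the mean of the log2 levels of the groups. DEGs are red where higher (1009) and blue where lower (941), and Lyz2, at the far right below 0, stands apart from the other abundant genes.

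Gene lists for the pathways of this response were described by their DEG counts beside the shares over all genes tested. The lists were chosen with earlier results of these data known, so their shares are not independent evidence. Some members, such as Il12a with at most 2 counts in any resting library, passed the count filter only through the LPS+ cre group. NF-kB genes, cytokines, interferon-stimulated effectors, feedback inhibitors, chemokines and effector enzymes held DEGs that rose in 55.0% to 87.5% of their tested members, against 6.92% of all genes. DNA replication genes held DEGs that fell in 57.7% of members, against 6.45% of all genes. By edgeR 0 of 30 mitosis genes, 0 of 11 LXR targets and 0 of 20 TCA cycle and respiratory chain genes were DEGs. At an unadjusted p under 0.05 there were 2, 6 and 10, against 50.1% of all genes tested. DESeq2 called 1, 2 and 0, against 17.6% of all genes it tested, and voom 0, 1 and 0, against 16.4%. The 22 lists held 412 genes, of which 406 were tested and 146 were DEGs, and the other 6 genes were too low.

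**Figure D2:**
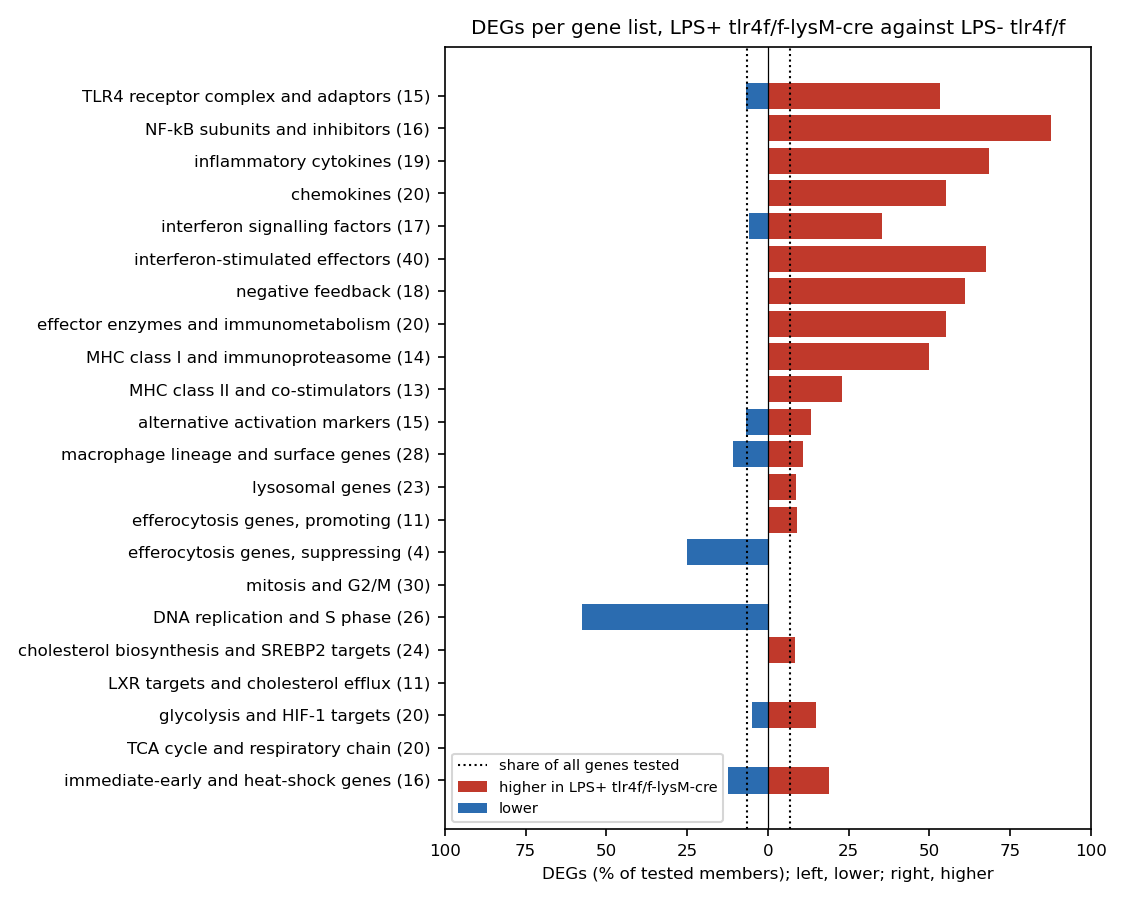
The bars give the share of tested members of each list that were DEGs, higher in the LPS+ cre group to the right and lower to the left, with the number tested in brackets. The dotted lines mark the share over all genes tested (6.92% higher, 6.45% lower), and the immune lists at the top exceed the right line while DNA replication reaches farthest past the left.

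Tlr4 fell while part of its receptor complex and adaptors rose. Of 15 members tested (Lbp was too low), 8 rose and 1, Tlr4 itself, fell, with a median log2 fold change of 1.28. Ly96, the MD-2 subunit that holds LPS, was at 5.56, 5.70 and 5.38 CPM in the resting libraries and 15.5, 14.01 and 10.98 CPM in the LPS+ cre libraries (log2 fold change 1.28, SE 0.166, adjusted p = 0.00232). The resting libraries were within a narrow range, and each LPS+ cre library stood above it. Cd14, the carrier of LPS, was at 1283, 893 and 1328 CPM and 2212, 2292 and 2087 CPM, a log2 fold change of 0.91 that stayed under a 2-fold change, with an adjusted p just above 0.01. Without resting replicate 3 it was 1.01 (adjusted p = 0.00503), which made Cd14 a DEG. Among the adaptors, Myd88 went from 91.6, 98.9 and 75.4 CPM to 229, 239 and 234 CPM (log2 fold change 1.40, SE 0.120, adjusted p = 0.000612) and Ticam2 from 16.1, 23.7 and 26.5 CPM to 80.95, 84.7 and 65.3 CPM (log2 fold change 1.80, SE 0.209, adjusted p = 0.00162). Tirap and Ticam1 had log2 fold changes of 0.96 and 0.90 and were not DEGs.

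Of the 4 IRAK kinases below the receptor, Irak2 and Irak3 rose. Irak3, which lacks kinase activity and restrains the pathway, rose from 34.7, 29.7 and 26.1 CPM to 287, 292 and 300.0 CPM (log2 fold change 3.28, SE 0.131, adjusted p = 0.000124). Irak2, which sustains signalling, rose from 40.9, 52.4 and 53.7 CPM to 263, 296 and 256 CPM (log2 fold change 2.47, SE 0.140, adjusted p = 0.000211). Irak1 and Irak4, the kinases recruited first by MyD88, were not DEGs, with log2 fold changes of -0.59 and -0.37, and Traf6, the ubiquitin ligase downstream of them, had one of 0.36. The list held Tlr1, Tlr2 and Tlr6 besides Tlr4, and all 3 rose. Tlr2, the receptor of bacterial lipoproteins, was at 31.2, 24.6 and 90.1 CPM and 574, 619 and 595 CPM (log2 fold change 3.62, SE 0.539, adjusted p = 0.00385), with resting replicate 3 the highest of its group. Its partners Tlr1 and Tlr6 had log2 fold changes of 2.93 and 2.05 and were DEGs. The 8 DEGs that rose became 4 to 6 when 1 LPS+ cre library was left out, and Tlr2 was then no longer one (adjusted p = 0.0170 to 0.0191). Without resting replicate 1, 6 rose and Tlr2 again missed the threshold (adjusted p = 0.0117).

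Of the 16 NF-kB subunits and inhibitors, 14 rose and 0 fell, with a median log2 fold change of 2.26. The precursors of the p50 and p52 subunits rose, Nfkb1 from 100.3, 94.1 and 133 CPM to 657, 698 and 654 CPM (log2 fold change 2.62, SE 0.161, adjusted p = 0.000243) and Nfkb2 from 79.05, 48.6 and 43.95 CPM to 466, 521 and 445 CPM (log2 fold change 3.06, SE 0.252, adjusted p = 0.000550). Rel and Relb rose as well, with log2 fold changes of 2.52 and 1.94. Rela, the subunit that carries most of the first NF-kB activity, differed by 0.47 and did not reach a 2-fold change. Nfkbia, the inhibitor that is degraded and then made again when the pathway is on, was at 113, 67.2 and 80.1 CPM and 832, 842 and 753 CPM (log2 fold change 3.22, SE 0.218, adjusted p = 0.000321). Nfkbiz, a nuclear cofactor for a second set of cytokine genes, had the largest rise of the list, from 28.7, 21.5 and 39.4 CPM to 427, 477 and 359 CPM (log2 fold change 3.82, SE 0.263, adjusted p = 0.000339). Tnfaip3, which encodes the ubiquitin-editing inhibitor A20, was at 22.1, 56.1 and 14.6 CPM and 413, 463 and 404 CPM (log2 fold change 3.78, SE 0.534, adjusted p = 0.00323). With 1 LPS+ cre library left out, 6 to 8 of the 16 were DEGs and Tnfaip3 was not (adjusted p = 0.0151 to 0.0173), nor was it without resting replicate 1 (adjusted p = 0.0114).

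Sequences before the start sites of the genes with the largest rises of this list and of the interferon-stimulated effectors are shown because the members of these lists moved together. They are the 250 bases before the start in RefSeq promoters of GRCm38.p6, 5′ to 3′ on the strand of the gene. The letters GGANNTTCC (NF-kB type) or GAAANNGAA (interferon type), on either strand with N for any base, are in capitals. Gbp5 (chr3:142496684-142496933, plus strand) and Gbp2 (chr3:142620413-142620662, plus strand) hold the interferon type, and Tnfaip3 (chr10:19015411-19015660, minus strand) and Gbp5 hold the NF-kB type.
Gbp5: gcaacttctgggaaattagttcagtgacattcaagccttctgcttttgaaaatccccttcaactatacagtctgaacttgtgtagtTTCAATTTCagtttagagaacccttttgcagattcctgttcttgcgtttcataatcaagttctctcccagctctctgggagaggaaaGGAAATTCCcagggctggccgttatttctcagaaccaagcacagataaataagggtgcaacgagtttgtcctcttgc
Gbp2: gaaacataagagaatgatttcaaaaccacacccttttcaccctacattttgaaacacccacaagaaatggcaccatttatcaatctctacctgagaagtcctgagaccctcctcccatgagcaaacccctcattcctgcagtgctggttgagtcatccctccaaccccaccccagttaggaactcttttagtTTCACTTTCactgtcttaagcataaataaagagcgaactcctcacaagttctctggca
Tnfaip3: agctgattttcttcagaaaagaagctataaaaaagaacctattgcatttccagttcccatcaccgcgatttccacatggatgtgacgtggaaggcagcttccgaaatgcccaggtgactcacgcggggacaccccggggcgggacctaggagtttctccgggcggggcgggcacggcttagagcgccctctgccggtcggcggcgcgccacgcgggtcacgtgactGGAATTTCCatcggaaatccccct
From the start, the first base of the interferon type lies at -164 in Gbp5 and -58 in Gbp2, and that of the NF-kB type at -77 in Gbp5 and -24 in Tnfaip3. In windows from 250 bases before to 50 after the start of all 27025 genes with a promoter, 4.24% held GGANNTTCC and 8.57% held GAAANNGAA. Among the members with a promoter, GGANNTTCC was in 4 of 13 of the NF-kB list, 5 of 12 cytokines and 5 of 12 chemokines, and GAAANNGAA in 23 of 32 interferon-stimulated effectors. Among DEGs, GAAANNGAA was in 12.2% of 713 that rose and 6.46% of 681 that fell (7.41% of all genes tested), and GGANNTTCC in 7.15% and 4.11% (4.64%). A match is a run of letters and does not show that a factor binds there. Nfkbiz was not among the promoters matched by symbol. The GENCODE models of Gbp5, Gbp2 and Tnfaip3 begin before these RefSeq starts. That of Tnfaip3 begins at 19015657, so most of its printed sequence lies inside that model. That of Gbp5 begins at 142493978, so all of its printed sequence lies inside it. That of Gbp2 begins at 142620602, so the last part of its printed sequence, with the marked letters, lies inside it. RefSeq held 2 promoters of Tnfaip3, and the first listed was used.

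Of 19 inflammatory cytokines 13 rose and 0 fell, with a median log2 fold change of 4.22 (3.86 when members with 3 counts or fewer in a whole group enter at the lower bound of their fold). Il1b (chromosome 2, 129364570 to 129371139), the fever-inducing cytokine that is released after inflammasome cleavage, was at 7.38, 4.34 and 0.0794 CPM in the resting libraries and 2767, 2856 and 2651 CPM in the LPS+ cre libraries (log2 fold change 9.45, SE 1.46, adjusted p = 0.00437). Il6 (chromosome 5, 30013114 to 30019981), which drives the acute phase response, was at 1.26, 0.221 and 0 CPM and 170.2, 263 and 176 CPM (log2 fold change 8.67, SE 1.12, adjusted p = 0.00244). Tnf (chromosome 17, 35199381 to 35202007) was at 55.3, 35.5 and 16.9 CPM and 1088, 1408 and 1053 CPM (log2 fold change 5.04, SE 0.486, adjusted p = 0.000942). In all 3 genes, every LPS+ cre library stood above every resting library, and resting replicate 3 was the lowest of the resting group. Resting replicate 1, the library with the stromal transcripts, was the highest.

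The IL-12 family, which directs T helper cells, rose through several subunits. Il12b, the p40 chain shared by IL-12 and IL-23, was at 0.273, 0.424 and 0 CPM and 105, 132 and 55.6 CPM (log2 fold change 8.65, SE 0.846, adjusted p = 0.00101). Il12a, the p35 chain, had at most 2 counts in any resting library and 6.02, 10.1 and 7.28 CPM in the LPS+ cre libraries, at least 142-fold higher than a floor of 3 counts in each resting library. Il23a, its partner in IL-23, was low throughout, at 0, 0.0170 and 0 CPM and 0.514, 0.410 and 0.448 CPM, and was a DEG (adjusted p = 0.00294). Il27 went from 1.82, 1.31 and 0.536 CPM to 47.2, 58.1 and 40.7 CPM (log2 fold change 5.31, SE 0.462, adjusted p = 0.000694). Ifnb1, the interferon that links TLR4 to the second wave of genes, stayed low in both groups, at 0.0365, 0.0170 and 0.0397 CPM and 0.318, 0.498 and 0.542 CPM, and was a DEG (adjusted p = 0.00349). Csf3, the growth factor of neutrophils, went from 0.328, 0.153 and 0 CPM to 47.1, 40.3 and 29.1 CPM (log2 fold change 7.87, SE 0.780, adjusted p = 0.00105).

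Not all cytokines passed the test. Il10 (chromosome 1, 131019845 to 131024974), which restrains macrophage activation, was at 2.94, 3.21 and 0.516 CPM and 7.63, 6.33 and 5.37 CPM, a log2 fold change of 1.53 (SE 0.628, edgeR adjusted p = 0.0974). Il1rn, the receptor antagonist of IL-1, was at 138, 280.2 and 11.8 CPM and 623, 505 and 611 CPM (log2 fold change 2.02, SE 0.956, adjusted p = 0.141). In both genes the LPS+ cre libraries lay above all resting libraries, but the groups did not overlap for 57.9% of all genes tested. In both, resting replicate 3 was far below the other resting libraries. Without it, Il10 had a log2 fold change of 1.06 and became a DEG (adjusted p = 0.00884), and Il1rn had one of 1.47 (adjusted p = 0.0191). With 1 LPS+ cre library left out, 7 of the cytokines were DEGs in each case, and Il1b (adjusted p = 0.0187 to 0.0206) and Il6 (0.0127 to 0.0148) were not among them. Il1b also missed the threshold without resting replicate 2 (adjusted p = 0.0173). Tnf and Il12b remained DEGs with any single library left out.

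**Figure D3:**
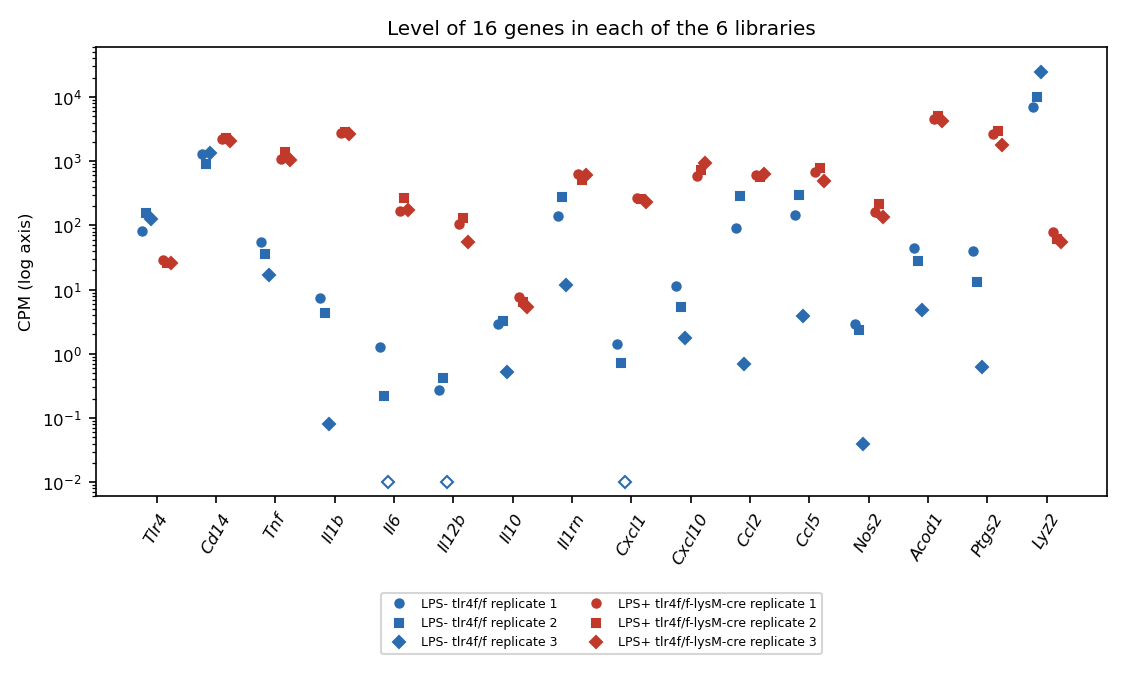
Each point is the level of 1 gene in 1 library, as CPM on a log axis, for 16 genes named in the text, with resting libraries in blue and LPS+ cre libraries in red. Open symbols at the bottom are libraries with 0 counts, drawn at 0.01 CPM, and the blue diamonds of resting replicate 3 lie lowest of their group for most cytokines and chemokines.

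Neutrophil attractants were among the chemokines that rose. Of 20 members, 11 rose and 0 fell, with a median log2 fold change of 4.03. Cxcl1 was at 1.40, 0.713 and 0 CPM in the resting libraries and 271, 253 and 234 CPM in the LPS+ cre libraries (log2 fold change 8.47, SE 1.05, adjusted p = 0.00213), and Cxcl3 at 2.30, 0.933 and 0.0199 CPM and 735, 954 and 759.9 CPM (log2 fold change 9.55, SE 1.23, adjusted p = 0.00244). Cxcl2 had a log2 fold change of 8.17. Cxcl10, the interferon-induced chemokine of T lymphocytes, was at 11.6, 5.33 and 1.77 CPM and 578, 736 and 933 CPM (log2 fold change 6.91, SE 0.785, adjusted p = 0.00163). Among the macrophage inflammatory proteins, Ccl3 and Ccl4 had log2 fold changes of 5.27 and 3.75, and Ccl9 one of 2.93, all DEGs. Ccl22 and Ccl17, ligands of CCR4 that are also counted among markers of alternative activation, rose: Ccl22 was at 0.766, 0.119 and 0.357 CPM and 121, 81.3 and 102 CPM (log2 fold change 7.93, SE 0.605, adjusted p = 0.000478), and Ccl17, with at most 2 counts in each resting library, was at least 40.3-fold higher.

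Several monocyte chemokines were already present in resting libraries and varied widely there. Ccl2 (chromosome 11, 82035571 to 82037453), the ligand of CCR2, was at 91.7, 285 and 0.695 CPM and 620.0, 571 and 624 CPM (log2 fold change 2.27, SE 1.49, adjusted p = 0.270). Ccl5 was at 146, 298 and 3.93 CPM and 689, 772 and 496 CPM (log2 fold change 2.13, SE 1.21, adjusted p = 0.208). In both, the LPS+ cre libraries were above all resting libraries, though the groups did not overlap for 57.9% of all genes tested. Resting replicate 3 had a small fraction of the level of the other resting libraries. Ccl7 and Ccl12 showed the same low value in resting replicate 3, at 29.7, 95.3 and 0.0199 CPM and 2.83, 7.64 and 0.139 CPM in the resting group, and were not DEGs. Ccl8 had 0.912, 14.9 and 0.0199 CPM at rest and 0.880, 0.909 and 0.424 CPM with LPS and Cre (adjusted p = 0.230). Resting replicate 3 was the lowest of its group for 16 of the 20 chemokines, against 38.5% of all genes tested. Without that library, 14 chemokines were DEGs. With 1 LPS+ cre library left out, 5 or 6 were, and Cxcl1 and Cxcl3 were not (adjusted p = 0.0120 to 0.0137 and 0.0126 to 0.0144). Cxcl3 also missed it without resting replicate 2 (0.0104), and Cxcl10 without LPS+ cre replicate 2 (0.0103).

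Of 17 interferon signalling factors, 6 rose and 1 fell, with a median log2 fold change of 0.61. Irf1, a factor induced by interferon and by NF-kB, went from 47.7, 52.8 and 42.9 CPM to 245, 298 and 318 CPM (log2 fold change 2.59, SE 0.143, adjusted p = 0.000202). Stat2, which carries the signal of the interferon receptor, went from 209, 243 and 161 CPM to 530.5, 538 and 589 CPM (log2 fold change 1.43, SE 0.169, adjusted p = 0.00170). Irf7, which amplifies interferon genes, was at 834, 576 and 110.4 CPM and 469, 443 and 469 CPM (log2 fold change -0.14, SE 0.643, adjusted p = 0.880), so the groups overlapped and resting replicate 1 was the highest of all 6 libraries. The sign of this difference depended on the libraries used, and it was 0.42 without resting replicate 1. Irf9 differed by 0.02 and Irf8 by -0.76 (adjusted p = 0.188). Ifnar1, a receptor chain of interferon-beta, rose (1.37), while Ifngr1, a receptor chain of interferon-gamma, fell from 154, 107 and 172 CPM to 67.1, 71.9 and 73.4 CPM (log2 fold change -1.03, SE 0.180, adjusted p = 0.00622). Ifngr1 lay close to the 2-fold limit and was not a DEG without resting replicate 1 or 3, or without any 1 LPS+ cre library, where 4 members of the list rose and 0 fell. Usp18 and Socs1, inhibitors of interferon receptor signalling, rose with log2 fold changes of 2.52 and 4.58.

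Of the 40 interferon-stimulated effectors, 27 rose and 0 fell, with a median log2 fold change of 2.06 and all 40 fitted above 0. The largest rises of the list were those of Gbp5 and Gbp2, guanylate-binding proteins, which attack the membranes around intracellular microbes. Gbp5 (chromosome 3, 142493978 to 142522344) was at 7.16, 5.53 and 0.695 CPM and 557, 641 and 667 CPM (log2 fold change 7.12, SE 0.899, adjusted p = 0.00227), and Gbp2 (chromosome 3, 142620602 to 142638008) at 38.03, 34.03 and 9.17 CPM and 1377, 1478 and 1345 CPM (log2 fold change 5.69, SE 0.597, adjusted p = 0.00126). Gbp3 rose as well (4.55), while Gbp7, with 54.5, 26.1 and 2.90 CPM in the resting libraries and 488, 489 and 567 CPM in the LPS+ cre libraries, missed the threshold (adjusted p = 0.0174). Ifit1 (chromosome 19, 34640871 to 34650009), which binds viral RNA, was at 158, 66.9 and 51.3 CPM and 999, 1138 and 1371 CPM (log2 fold change 3.67, SE 0.474, adjusted p = 0.00241). Rsad2 (viperin) had a log2 fold change of 4.74, Mx1 one of 5.13 and Cmpk2 one of 3.75. The RNA sensors Ifih1 (MDA5) and Ddx58 (RIG-I) rose by 2.64 and 1.96 on the log2 scale.

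The oligoadenylate synthetases, which make the activator of RNase L, were mostly at a high level in both groups. Oas1a was at 146, 138 and 109 CPM and 179, 176 and 185 CPM (log2 fold change 0.46), and Oas2 and Oas3 differed by 0.56 and 0.35. By edgeR 0 of these 3 were DEGs (2 had an unadjusted p under 0.05, as had 50.1% of all genes tested, and DESeq2 and voom called 0), while the related Oasl1 was (2.61). Bst2 (tetherin) was at 422, 389 and 249 CPM and 407, 405 and 401 CPM (log2 fold change 0.19, adjusted p = 0.476). Isg15, the ubiquitin-like modifier, was at 139, 72.7 and 36.9 CPM and 401, 408 and 446 CPM and lay just outside the threshold (log2 fold change 2.34, SE 0.466, adjusted p = 0.0105). Resting replicate 3 was the lowest resting library for 35 of the 40 effectors, and without it 30 were DEGs. Without resting replicate 1 or 2 there were 26 and 20, and with 1 LPS+ cre library left out there were 13 in each case, without Gbp5 (adjusted p = 0.0117 to 0.0131) or Ifit1 (0.0122 to 0.0137). Ifit3 and Ifit3b, and the Gbp and Oas families, are close copies of each other, so reads can be split between them.

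**Figure D4:**
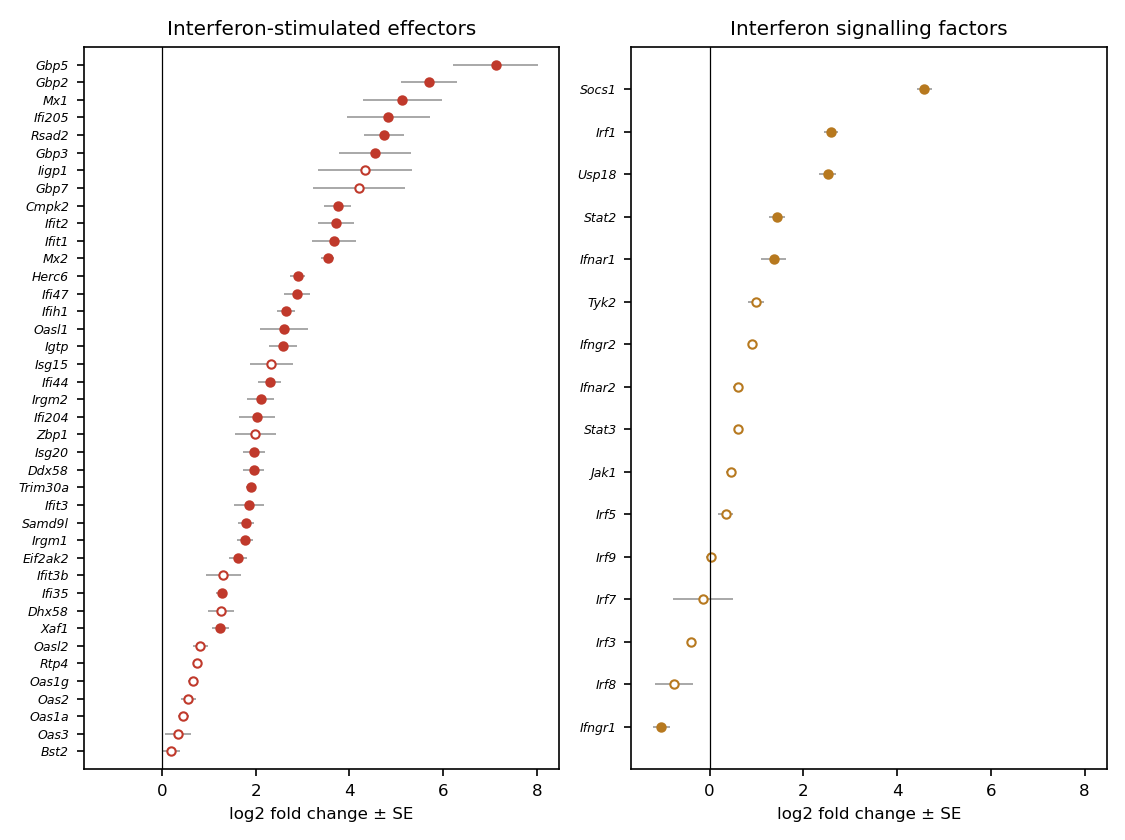
The log2 fold change with its standard error (LPS+ cre over resting, 3 libraries each) is shown for the 40 interferon-stimulated effectors and for 16 of the 17 interferon signalling factors, with filled points for DEGs. The effectors all lie above 0, from Bst2 at 0.19 to Gbp5 at 7.12, while the signalling factors run from Ifngr1 at -1.03 to Socs1 at 4.58.

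Inhibitors that normally follow TLR4 signalling were among the DEGs. Of 18 feedback genes, 11 rose and 0 fell, with a median log2 fold change of 2.73. Socs3, the inhibitor of the IL-6 receptor, was at 11.3, 10.3 and 1.25 CPM and 497, 492 and 509 CPM (log2 fold change 6.03, SE 0.851, adjusted p = 0.00322). Cish, of the same family, was at 0.182, 0.764 and 0.119 CPM and 15.3, 15.1 and 16.5 CPM (log2 fold change 5.43, SE 0.694, adjusted p = 0.00232). Socs1, which blocks JAK kinases and is on the lists of feedback and interferon signalling, went from 2.04, 2.36 and 2.70 CPM to 50.3, 62.8 and 57.2 CPM (log2 fold change 4.58, SE 0.159, adjusted p = 0.000124). Zc3h12a, the ribonuclease Regnase-1, and Zfp36 (tristetraprolin), both of which remove cytokine mRNAs, had log2 fold changes of 3.95 and 1.94. The MAP kinase phosphatases divided, with Dusp16 higher (2.30) and Dusp1 at 106, 87.8 and 10.9 CPM and 121, 97.3 and 104 CPM (adjusted p = 0.500). When 1 LPS+ cre library was left out, 5 feedback genes were DEGs, and Socs3 (adjusted p = 0.0149 to 0.0164) and Cish (0.0131 to 0.0145) were not. Socs3 also missed the threshold without resting replicate 2 (adjusted p = 0.0113).

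Effector enzymes rose in 11 of 20 members, with 0 lower and a median log2 fold change of 3.66. Acod1 (chromosome 14, 103046977 to 103056573), the enzyme that makes itaconate, was at 45.05, 27.8 and 4.88 CPM and 4579.6, 5119 and 4239 CPM (log2 fold change 7.49, SE 0.919, adjusted p = 0.00208). Nos2 (chromosome 11, 78920787 to 78960254), the inducible nitric oxide synthase, was at 2.92, 2.36 and 0.0397 CPM and 161, 217 and 137 CPM (log2 fold change 6.58, SE 1.08, adjusted p = 0.00531). Its arginine transporter Slc7a2 had a log2 fold change of 5.09, the cofactor enzyme Gch1 one of 2.74 and the mitochondrial superoxide dismutase Sod2 one of 4.35, all DEGs. Arg1, which competes for arginine, was low in both groups, at 0.583, 0.883 and 0.0397 CPM and 0.611, 0.498 and 0.471 CPM. Ptgs2, the cyclooxygenase of prostaglandin synthesis, was at 39.2, 12.9 and 0.615 CPM and 2612, 2956 and 1813 CPM and missed the threshold (log2 fold change 7.13, SE 1.46, adjusted p = 0.0113), with a wide range among the resting libraries. Without resting replicate 3 it was a DEG (6.55, adjusted p = 0.00195), and 16 of the 20 enzymes were. Saa3, an acute phase protein, was at 262, 456 and 1.01 CPM and 1079.6, 1218 and 1039.9 CPM (adjusted p = 0.284). Nos2 was not a DEG without resting replicate 1 or 2 (adjusted p = 0.0114 and 0.0179), and neither Nos2 (0.0213 to 0.0252) nor Acod1 (0.0105 to 0.0120) was when 1 LPS+ cre library was left out, which left 2 to 5 DEGs.

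Of 14 genes of MHC class I presentation and the immunoproteasome, 7 rose and 0 fell, with a median log2 fold change of 0.90. Nlrc5, the activator of class I genes, went from 81.8, 80.6 and 53.9 CPM to 264, 270.0 and 265 CPM (log2 fold change 1.88, SE 0.175, adjusted p = 0.000804), and Psme2, a subunit of the proteasome activator, from 129.6, 143 and 87.3 CPM to 460.3, 475 and 466 CPM (log2 fold change 1.96, SE 0.194, adjusted p = 0.000966). The peptide transporter genes Tap1 and Tap2 had log2 fold changes of 1.72 and 1.52. The heavy chains were not DEGs: H2-K1 was at 1863, 1365 and 1148 CPM and 1500.4, 1573 and 1524 CPM, and H2-D1 differed by -0.32. They resemble other class I genes, so reads can be split among them. When 1 LPS+ cre library was left out, 4 or 5 members were DEGs, all higher.

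Among MHC class II genes, 0 of 7 presentation genes were DEGs by edgeR, DESeq2 or voom, and 0 had an unadjusted p under 0.05 (50.1% of all genes tested), while 3 of 6 co-stimulators rose. Cd40, the receptor of T cell help, was at 0.930, 9.98 and 3.16 CPM and 362, 407 and 266 CPM (log2 fold change 6.20, SE 0.922, adjusted p = 0.00383). Cd274 (PD-L1), which restrains T cells, was at 27.5, 64.02 and 14.1 CPM and 623, 669 and 696 CPM (log2 fold change 4.23, SE 0.583, adjusted p = 0.00298), and Cd86 had a log2 fold change of 2.41. Cd80 was at 2.24, 2.46 and 1.07 CPM and 2.74, 3.11 and 2.69 CPM and was not a DEG. The class II genes varied widely among the resting libraries: Ciita, their master regulator, was at 0.237, 1.07 and 18.7 CPM, with resting replicate 3 above all LPS+ cre libraries, which had 2.47, 1.96 and 2.88 CPM. Cd74, the invariant chain, was at 56.4, 325 and 935 CPM and 513, 444 and 212 CPM (adjusted p = 0.895). With 1 LPS+ cre library left out, 0 genes of this list were DEGs (Cd40 adjusted p = 0.0155 to 0.0189, Cd274 0.0145 to 0.0158). Cd40 also missed the threshold without resting replicate 3 (0.0123) and Cd274 without resting replicate 1 (0.0115).

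Markers of alternative activation and of macrophage identity moved in both directions. DEGs were 20.0% of the alternative activation markers tested and 21.4% of the lineage and surface genes, against 13.4% of all genes tested. Among 15 alternative activation markers tested (Retnla was too low), 2 rose (Ccl17 and Ccl22) and 1 fell, Clec10a, a lectin receptor, from 3.76, 3.72 and 4.11 CPM to 0.0734, 0.205 and 0.448 CPM (log2 fold change -3.97, SE 0.592, adjusted p = 0.00364). Clec10a was not a DEG without LPS+ cre replicate 1, where its adjusted p was just above 0.01, or without replicate 2 (adjusted p = 0.0262). Mrc1 (chromosome 2, 14229392 to 14332057), which encodes the mannose receptor CD206, was at 79.4, 514 and 16.001 CPM and 62.02, 80.8 and 55.2 CPM (log2 fold change -1.62, SE 1.11, adjusted p = 0.286). Without resting replicate 2, 4 members of the list rose and 2 fell. For Mrc1 that library was alone at its high level, and without it the log2 fold change turned to 0.47 (adjusted p = 0.611).

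Of 28 lineage and surface genes, 3 rose and 3 fell, with a median log2 fold change of -0.28. Maf, a transcription factor of macrophages, rose from 178, 173 and 109 CPM to 425, 358 and 380.3 CPM (log2 fold change 1.34, SE 0.207, adjusted p = 0.00407). Cebpb, a factor of inflammatory genes, rose (1.50), and so did Fcgr2b, the inhibitory IgG receptor, from 13.4, 37.7 and 17.01 CPM to 236, 232 and 208 CPM (log2 fold change 3.31, SE 0.415, adjusted p = 0.00224). Ccr2, the receptor of Ccl2, fell by 1.21 on the log2 scale, and Lyz2, described above, was also among the genes that fell. Csf1r, the receptor of M-CSF, was at 1841, 1682 and 3082 CPM and 1723, 1827 and 1898 CPM (log2 fold change -0.28, SE 0.249, adjusted p = 0.409), and without resting replicate 3 its log2 fold change turned to 0.0380. Cx3cr1 was at 169.6, 8.42 and 393 CPM and 155, 103 and 161 CPM (adjusted p = 0.765). C1qa was at 5.38, 745 and 157 CPM in the resting group and 181, 178 and 45.5 CPM in the LPS+ cre group, a range in which the groups overlapped. With any LPS+ cre library removed, 2 of the 28 were DEGs, and Fcgr2b was not (adjusted p = 0.0115 to 0.0136).

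Of the cathepsin genes on the lysosomal list, 0 of 6 were DEGs by edgeR, DESeq2 or voom (1 had an unadjusted p under 0.05, against 50.1% of all genes tested), and no edgeR call was made for Hexa or Lipa, which break down glycolipids and lipids. Ctsb was at 7446, 14917 and 8177 CPM and 9153, 9697 and 8638 CPM (log2 fold change -0.15). Of 23 members 2 rose (8.70%), which is near the 6.92% of all genes tested. Both were factors of the MiT family that act on lysosomal genes: Tfec from 13.1, 18.99 and 6.29 CPM to 136, 155 and 156 CPM (log2 fold change 3.54, SE 0.405, adjusted p = 0.00168) and Mitf from 86.9, 98.4 and 61.6 CPM to 261, 262 and 270.2 CPM (log2 fold change 1.68, SE 0.179, adjusted p = 0.00122). Tfeb of the same family differed by -0.65 and did not reach a 2-fold change. Tfec was not a DEG when any LPS+ cre library was left out (adjusted p up to 0.0112), and Mitf was not without replicate 2 of that group (0.0103).

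Genes of efferocytosis, the uptake of dead cells, were chosen by the study on these samples, so their direction is not independent evidence. Of 11 promoting genes tested, 1 rose (9.09%), which is near the 6.92% of all genes tested. It was Xkr8, a scramblase that exposes phosphatidylserine, from 10.1, 9.05 and 8.99 CPM to 94.3, 113 and 95.9 CPM (log2 fold change 3.43, SE 0.115, adjusted p = 0.000122). C3 (chromosome 17, 57203970 to 57228136), the central complement component, was at 359, 172 and 149 CPM and 742, 654 and 586 CPM (log2 fold change 1.54, SE 0.351, adjusted p = 0.0158), and without resting replicate 1 it was a DEG (2.04, adjusted p = 0.000877). Mertk, a receptor of apoptotic cells, differed by -0.44, and Ccl2, described above, was not a DEG. Adgrb1 and Tyro3 were too low to be tested. Of 4 suppressing genes, 1 fell: Cd300lf, a receptor of phospholipids, from 11.2, 12.97 and 4.13 CPM to 0.416, 0.264 and 0.401 CPM (log2 fold change -4.69, SE 0.524, adjusted p = 0.00144). Trem2, a lipid receptor, was at 587, 689 and 739 CPM and 341, 389 and 381 CPM, lower in each LPS+ cre library but by less than 2-fold (log2 fold change -0.86, SE 0.127, adjusted p = 0.00357). When 1 LPS+ cre library was left out, Xkr8 remained a DEG and Cd300lf did not (adjusted p = 0.0116 to 0.0124).

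Most of the DNA replication genes fell, while no mitosis gene was a DEG. Of 26 replication and S phase genes, 15 fell and 0 rose, with a median log2 fold change of -1.51. The groups did not overlap for 20 of 26, against 57.9% of all genes tested and all of the 1950 DEGs. The helicase that opens replication origins fell in each of its 6 subunits, Mcm2 to Mcm7. Mcm2 (chromosome 6, 88883474 to 88898780) was at 101, 91.4 and 71.6 CPM in the resting libraries and 12.3, 9.67 and 11.999 CPM in the LPS+ cre libraries (log2 fold change -2.95, SE 0.170, adjusted p = 0.000215). Mcm6 was at 271, 229 and 219 CPM and 42.4, 43.9 and 48.6 CPM (log2 fold change -2.41, SE 0.120, adjusted p = 0.000175). Every resting library was above every LPS+ cre library by more than 4-fold in both genes.

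Loaders of the helicase and factors that switch on S phase genes were also DEGs. Cdc6 and Cdt1, which place the helicase on origins, went from 20.7, 19.9 and 9.75 CPM to 2.79, 2.20 and 1.72 CPM (log2 fold change -2.91, SE 0.358, adjusted p = 0.00196) and from 113, 128 and 64.6 CPM to 22.7, 19.3 and 20.7 CPM (log2 fold change -2.28, SE 0.261, adjusted p = 0.00158). E2f2 (chromosome 4, 136172394 to 136196057), an activating factor of S phase genes, had the largest fall of the list, from 49.02, 43.1 and 99.6 CPM to 3.47, 3.08 and 2.97 CPM (log2 fold change -4.33, SE 0.375, adjusted p = 0.000663), and E2f1 went from 78.8, 92.4 and 63.9 CPM to 24.3, 25.4 and 27.2 CPM (log2 fold change -1.61, SE 0.148, adjusted p = 0.000751). Genes of nucleotide supply were not DEGs: Rrm2, of ribonucleotide reductase, was at 80.8, 90.6 and 17.9 CPM and 21.6, 20.5 and 23.6 CPM, and Tyms, the thymidylate synthase, differed by 0.58. The letters TTCCCGC, part of the E2F type, were in 8 of 21 promoters of this list, 15.0% of the DEGs that fell, 5.47% of those that rose, 8.33% of all genes tested and 4.66% of all promoters. They were in neither the Mcm2 nor the E2f2 window. Without resting replicate 3, which was the lowest of its group for 25 of the 26 genes, 20 were DEGs, and with 1 LPS+ cre library left out 6 or 7 were, Mcm2 and E2f2 among them.

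Among genes of mitosis and G2/M, edgeR called 0 of 30 and DESeq2 called 1, and the median log2 fold change was 0.35. The groups did not overlap for 3 of the 30, against 57.9% of all genes tested. Mki67 (chromosome 7, 135689784 to 135716361), the proliferation antigen, was at 205, 310.0 and 49.9 CPM and 244, 278 and 313 CPM (log2 fold change 0.56, SE 0.592, adjusted p = 0.482), with resting replicate 2 at the level of the LPS+ cre libraries. Top2a, which untangles chromosomes, was at 176, 246 and 44.2 CPM and 173, 192 and 227 CPM, and Ccnb1, the cyclin of mitosis, at 24.2, 34.2 and 7.39 CPM and 31.8, 38.7 and 53.3 CPM. Resting replicate 3 was the lowest of all 6 libraries for these 3 genes, and the lowest resting library for 29 of the 30. Without it, 1 gene of the list was a DEG and lower in the LPS+ cre group.

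**Figure D5:**
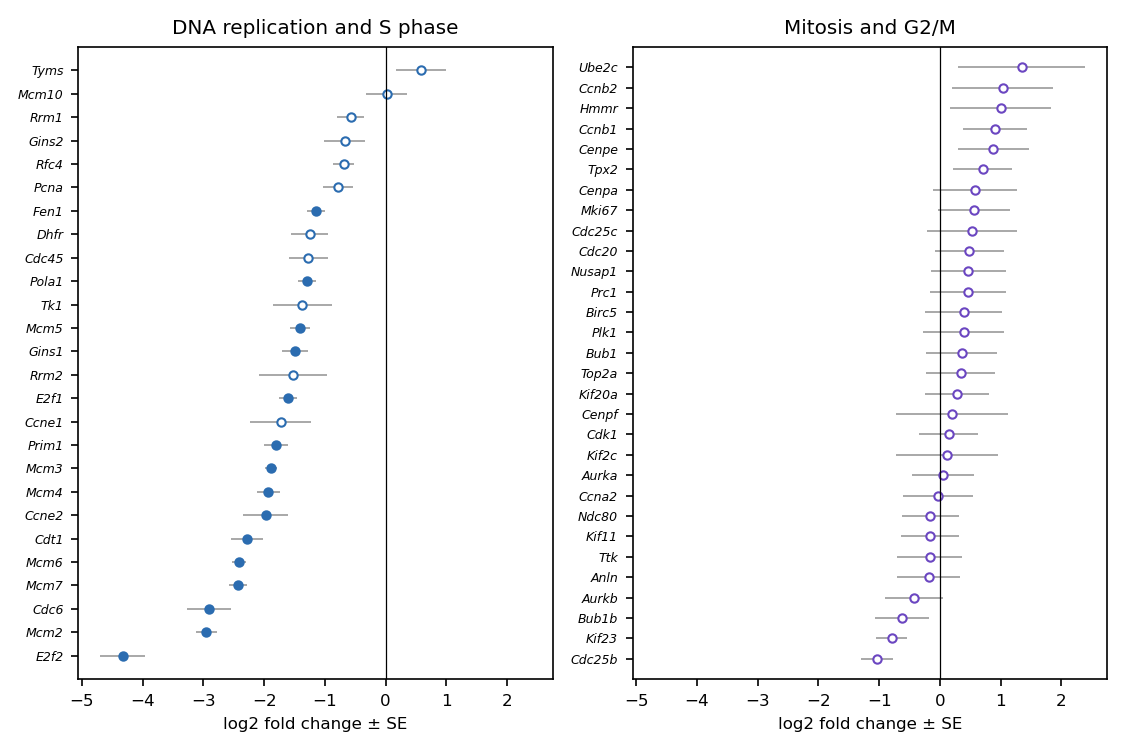
The log2 fold change of each member with its standard error (LPS+ cre over resting, 3 libraries each) is shown for genes of DNA replication and S phase and for genes of mitosis and G2/M, with filled points for DEGs. Replication genes lie mostly left of 0, down to E2f2 at -4.33, while mitosis genes lie on both sides of 0 with wide errors and no filled point.

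Of 24 cholesterol biosynthesis genes tested, 2 (8.33%, against 6.92% of all genes) rose, Idi1 from 8.50, 16.6 and 10.7 CPM to 33.1, 31.5 and 35.2 CPM (log2 fold change 1.48, SE 0.249, adjusted p = 0.00544) and Hsd17b7 from 15.1, 16.04 and 10.6 CPM to 33.9, 37.6 and 43.3 CPM (log2 fold change 1.46, SE 0.187, adjusted p = 0.00224). The median log2 fold change was 0.58. Without resting replicate 2, 7 genes of this list were DEGs, and with 1 LPS+ cre library left out 0 were (Idi1 then had an adjusted p of 0.0252 to 0.0266 and Hsd17b7 of 0.0115 to 0.0149). Abca1, the cholesterol exporter and an LXR target, was at 274, 314 and 103 CPM and 751, 766 and 923 CPM (log2 fold change 1.82, SE 0.410, adjusted p = 0.0153), and without resting replicate 3 it was a DEG (1.47, adjusted p = 0.000561). The LXR list had 0 of 11 DEGs by edgeR and 2 higher by DESeq2, and Apoc1 was too low to be tested. Apoe, another LXR target, was at 1955, 2733 and 5707 CPM and 2464, 2510.1 and 1730 CPM (adjusted p = 0.264).

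Of 20 genes of glycolysis and HIF-1, 3 rose and 1 fell, in all 20.0% against 13.4% of all genes tested. Pfkfb3, which makes the activator of phosphofructokinase, rose from 32.5, 52.1 and 30.2 CPM to 105, 88.6 and 106 CPM (log2 fold change 1.38, SE 0.226, adjusted p = 0.00498), and Hk2, a hexokinase, and Hif1a rose by 1.11 and 1.13 on the log2 scale. Vegfa, the vascular growth factor, fell from 42.7, 34.1 and 60.5 CPM to 16.2, 13.1 and 20.6 CPM (log2 fold change -1.46, SE 0.261, adjusted p = 0.00676). Pfkfb3 and Vegfa were not DEGs without resting replicate 1 (adjusted p = 0.0134 for both), where 2 members rose and 0 fell, or without an LPS+ cre library, where 1 or 2 rose and 0 fell. The abundant enzymes of the pathway were not DEGs, with log2 fold changes of 0.16 for Gapdh and 0.05 for Ldha. Of 20 TCA cycle and respiratory chain genes, 0 were DEGs, with a median of 0.20 and changes from -0.69 to 0.87. Cox4i1, a subunit of cytochrome oxidase, was at 226, 259 and 252 CPM and 269, 296 and 273 CPM.

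Immediate-early and heat-shock genes divided. Of 16, 3 rose and 2 fell, in all 31.25% against 13.4% of all genes tested. Fosb, of the AP-1 family, had 1 count in each LPS+ cre library, and at 1.44, 1.02 and 0.794 CPM the resting libraries were at least 14.0-fold above the floor of 3 counts. Jun, of the same family, fell from 171, 219 and 105 CPM to 62.6, 58.7 and 71.8 CPM (log2 fold change -1.36, SE 0.266, adjusted p = 0.00936), and Junb rose from 218, 180.3 and 155 CPM to 412, 439.6 and 407 CPM (log2 fold change 1.19, SE 0.143, adjusted p = 0.00186). Hspa1b, an inducible HSP70 gene, rose from 12.5, 8.23 and 6.99 CPM to 50.4, 65.7 and 55.4 CPM (log2 fold change 2.63, SE 0.244, adjusted p = 0.000784), together with its close copy Hspa1a (1.75). Fos was at 179, 106 and 31.6 CPM and 96.8, 64.8 and 114 CPM and Egr1 at 12.5, 4.17 and 0.298 CPM and 5.77, 3.72 and 2.55 CPM, and neither was a DEG. When 1 LPS+ cre library was left out, 1 or 2 members rose and 1 fell.

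Over all genes, among DEGs with at least 100 counts in every LPS+ cre library, over 3 counts in a resting library and no overlap between groups (predicted genes left out), the largest rises were those of Olr1, Cxcl3, Shisa3, Il1b, Lad1 and Il6. Olr1 (chromosome 6, 129485244 to 129507165), the receptor of oxidized LDL, was at 0.109, 0.170 and 0 CPM and 75.6, 91.4 and 105 CPM (log2 fold change 9.83, SE 0.580, adjusted p = 0.000243). Shisa3 was at 0.146, 0.119 and 0.0199 CPM and 73.8, 83.5 and 57.2 CPM (log2 fold change 9.49, SE 0.442, adjusted p = 0.000168), and Lad1 at 0.109, 0.0339 and 0.0397 CPM and 32.5, 32.9 and 28.2 CPM (log2 fold change 8.94, SE 0.352, adjusted p = 0.000124). Olr1, Shisa3 and Lad1 were DEGs with any single library left out. Zfp811, a zinc finger gene with at most 3 counts in any resting library, was at 24.9, 24.04 and 18.5 CPM in the LPS+ cre libraries, at least 408-fold above the floor.

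The largest falls under the same rule were those of Zbtb16, Lyz2, Tnfrsf23, Tnfrsf26, Ung and Cxcr4. Zbtb16, the transcription factor PLZF, was at 6.13, 3.36 and 21.98 CPM and 0, 0.0293 and 0.0943 CPM (log2 fold change -7.87, SE 1.18, adjusted p = 0.00399). Tnfrsf23 and Tnfrsf26, neighbouring decoy receptors of the TNF family on chromosome 7, were at 17.4, 10.8 and 2.90 CPM and 0.147, 0.0293 and 0 CPM (log2 fold change -7.38, SE 1.12, adjusted p = 0.00411) and at 18.9, 20.8 and 3.22 CPM and 0.0245, 0.0293 and 0.283 CPM (log2 fold change -6.91, SE 1.14, adjusted p = 0.00535). Ung (chromosome 5, 114130386 to 114139323), the glycosylase that removes uracil from DNA, was at 17.7, 12.7 and 9.45 CPM and 0.0734, 0.0586 and 0.283 CPM (log2 fold change -6.52, SE 0.606, adjusted p = 0.000809). Cxcr4, the receptor that holds cells in the marrow, was at 29.5, 71.3 and 398 CPM and 2.25, 1.58 and 2.05 CPM (log2 fold change -6.40, SE 1.14, adjusted p = 0.00705), with most of the resting level in replicate 3. Of these, Lyz2 and Ung were DEGs with any single library left out. Cxcr4 was not without resting replicate 2 (adjusted p = 0.0111), Tnfrsf23 without resting replicate 2 (0.0108) and Tnfrsf26 without resting replicate 1 or 2 (0.0125 and 0.0137). With 1 LPS+ cre library left out, Zbtb16, Tnfrsf23, Tnfrsf26 and Cxcr4 had adjusted p of up to 0.0265, 0.0275, 0.0299 and 0.0398. Tspan32, a tetraspanin at 0 counts in all LPS+ cre libraries, was at 6.18, 1.19 and 3.79 CPM at rest, at least 48.1-fold above the floor, and AI661453 was at least 60.8-fold lower. Tspan32 was a DEG in 1 of the 6 fits with a library left out, that without resting replicate 2, and in the other 5 its adjusted p was 0.0116 to 0.0248. AI661453 was not a DEG when 1 LPS+ cre library was left out (adjusted p = 0.0196 to 0.0219).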

How the data were processed

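RNA was extracted with Trizol from cultured BMDMs and sequenced as paired reads with a kit that does not keep the strand, so a gene and its antisense partner cannot be told apart. The labels name both ribosomal RNA removal and polyA sequencing. Per the labels and the study's methods, the authors used Trimmomatic 0.36 and FastQC on the reads and aligned them to mm10 with HISAT2. They deposited raw read counts per transcript from HTSeq (version not given in the sources used here). The deposited table held counts for 115140 transcripts and no row without a gene.

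For each of 43131 genes the transcript with the highest total over all 12 libraries of the series was kept, and 14584 genes passed filterByExpr. The 6 libraries were compared with edgeR 4.0.16 (R 4.3.3) by the quasi-likelihood test with TMM factors, robust estimation and Benjamini-Hochberg adjustment over all genes tested. The script was tested on simulated data that gave both groups the same spread, unlike these libraries. The study's methods name DESeq, and DESeq2 1.42.0 and limma 3.58.1 served as alternatives, with other filters, another scaling, the replicate number as a block and each library left out. The floor was 3 counts in each library of a group. Summed counts over genes were 38274326 to 56445268 per library, and CPM carries counting error besides the spread between libraries. Positions are from GENCODE on GRCm38. Promoters and sequences are from RefSeq.

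The contrast, gene lists and named genes were chosen with earlier results of these data known, and the efferocytosis genes were chosen by the study on these samples. Named genes were a fixed set of known LPS response genes, the 6 largest rises and 6 largest falls among DEGs with 100 counts or more in each library where they are high and over 3 counts in 1 where they are low, in each list the 2 DEGs with the largest change and at least 10 counts (or the most abundant member where a list had 0 DEGs), the 2 largest lower bounds each way, and in lists with both directions the largest of the rarer one. Symbols of predicted genes were left out. Other members were named to describe their list after their values were seen. DEGs follow the criteria of the study. A few members are counted in their lists but not reported here by name.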

Additional observations from a re-analysis of the deposited data

How the results depend on the processing

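The count of 1950 DEGs was 2399 with voom, 2434 with all 12 libraries in the fit, 1947 with RLE factors, 1954 without a filter, 1727 with at least 10 counts in every library and 1779 with transcripts summed. It became 3093 with DESeq2 (1930 shared), 3045 at an adjusted p below 0.05 and 529 when glmTreat tested against a fold of 2, where 65.4% were higher, against 51.7%. With 1 library left out it ran from 592 to 2291, and the lower values came from leaving out LPS+ cre replicates (64.3% to 66.4% higher). DEGs on the lists (146) became 72 with glmTreat and ran from 59 to 168 with 1 library left out. DEGs among named genes (57) became 34 with at least 10 counts in every library, 35 with glmTreat, and ran from 25 to 58 with 1 library left out. The filter on counts in every library removes genes near 0 at rest, and leave-outs of either group have fewer samples. The spread is pooled over both groups, so leaving out an LPS+ cre library gives the wider resting libraries more weight in it. The part of this weight in the lower counts and the cause of the other shifts were not tested.

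Same-numbered libraries had correlations of -0.026, 0.0981 and -0.0341 in their deviations from the group means. The LPS+ cre libraries differed little from each other, so these values cannot tell whether the numbers pair the samples. With the replicate block, 922 genes were DEGs (916 shared), 81 on the lists and 34 among named genes. No DEG shared with an alternative changed sign (0 genes), a count close to fixed in advance because the fits share most or all libraries. Among named genes that were not DEGs, the log2 fold change turned for Irf7 (0.24 with the replicate block, and -0.62 to 0.42 with 1 library left out, highest without resting replicate 1), Csf1r (-0.44 to 0.038, highest without resting replicate 3), Mrc1 (-2.17 to 0.47, highest without resting replicate 2) and Cx3cr1 (1.64 with voom, 0.53 with the replicate block, and -1.01 to 0.64, highest without resting replicate 3). Counts of 0 to 3 limit genes at the floor, 68 DEGs at rest and 31 in the LPS+ cre group.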

Other observations

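Genes outside the lists with at least 100 CPM in the higher group and the largest changes were chosen after their values were seen, from 352 DEGs that rose and 129 that fell. Cd69, an activation antigen of leukocytes, was at 0.711, 0.781 and 0.576 CPM in the resting libraries and 212, 287 and 252 CPM in the LPS+ cre libraries (log2 fold change 8.50, SE 0.209, adjusted p = 5.18e-05). Clec4e, a receptor of mycobacterial glycolipid known as Mincle, was at 39.1, 16.9 and 25.1 CPM and 1495, 1900.4 and 1547 CPM (log2 fold change 5.93, SE 0.378, adjusted p = 0.000261). The other rises were those of Il4i1, an amino acid oxidase (6.60), Bcl2a1d, an apoptosis inhibitor with close copies (5.94), Gpr84, a fatty acid receptor (5.06), Vcan, a proteoglycan (4.96), Fpr2, a formyl peptide receptor (4.89), F10, coagulation factor X (4.48), Pde4b, a cAMP phosphodiesterase (4.47), and Slco3a1, a transporter (4.45), each as a log2 fold change.

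Among genes that fell, Ccnd1, the cyclin of G1 that growth factors induce, was at 580.1, 434 and 237 CPM and 28.9, 25.97 and 27.04 CPM (log2 fold change -3.93, SE 0.346, adjusted p = 0.000682). Gas6, the ligand of Mertk and Axl, was at 262, 351 and 415 CPM and 36.6, 42.2 and 33.4 CPM (log2 fold change -3.20, SE 0.203, adjusted p = 0.000261), with the groups apart and no resting library standing alone. Slc37a2, a phosphate-linked sugar transporter of macrophages, was at 579.7, 472 and 579.5 CPM and 54.3, 59.1 and 56.8 CPM (log2 fold change -3.26, SE 0.126, adjusted p = 0.000124). Rasgrp3, Nav2, C77080, Gcnt1, Cgnl1 and Mtss1 fell by 5.83, 4.22, 4.10, 3.91, 3.73 and 3.24 on the log2 scale.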
